A study of Mus musculus with 27 samples.

Results

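MiR-205 and miR-31 are microRNAs of epithelial tissues, and each is made from a single hairpin that gives a 5p and a 3p mature strand. These 4 mature microRNAs (mmu-miR-205-5p, mmu-miR-205-3p, mmu-miR-31-5p and mmu-miR-31-3p, below without the prefix for mouse) were picked out by their exact mature names from the 2035 microRNA loci of the tables, and each name had 1 locus. The pair was chosen with earlier results of these data known, so their levels below are a description, and no test supports them. The cells were cj7 mouse embryonic stem (ES) cells, either wild-type or lacking a Polycomb protein as Eed-/-, Ezh2-/- or Jarid2-/-, so there are 4 genotypes. All of them were grown in medium with serum and leukemia inhibitory factor and had no further treatment before the RNA was taken. Eed and Ezh2 are core subunits of Polycomb repressive complex 2 (PRC2), which methylates histone H3 at silent genes, and Jarid2 binds the complex and recruits it to part of its target genes. The labels list 27 samples, of which 7 are small RNA samples, 1 of them for Jarid2-/- and 2 for each other genotype. The microRNA counts come as 1 column per genotype. No source says whether a column pools the samples of its genotype, and none says whether a mutant line is 1 clone. No difference between genotypes therefore has a replicate check, and no p-value is given.

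A microRNA hairpin is cut by Drosha and Dicer into a short duplex, and one strand of it is usually kept by an Argonaute protein while the other is lost. The kept strand finds messenger RNAs mainly through its seed, bases 2 to 8 from the 5′ end, so the strands of one hairpin have different targets. MiR-205-5p is known from skin, mammary gland and other stratified or glandular epithelia, where it works with the miR-200 family against the transcription factors Zeb1 and Zeb2. MiR-31-5p is known from keratinocytes and hair follicles, and in human leukemia cells of T-cell origin its gene is silenced through EZH2, the human counterpart of Ezh2.

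The mature sequences are shown because the seeds separate the 4 strands into 4 different target classes. They are given 5′ to 3′, with the seed in capitals, as the deposited tables hold them, and the same letters stand in the RefSeq microRNA table of build GRCm38.p6.
miR-205-5p: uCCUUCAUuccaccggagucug
miR-205-3p: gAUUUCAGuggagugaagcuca
miR-31-5p: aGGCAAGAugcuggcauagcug
miR-31-3p: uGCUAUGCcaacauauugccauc
No seed was shared between them, and 0 of the other loci in the tables and 0 other mature entries in the RefSeq table carried any of these seeds. Each mature sequence also occurred at 1 locus in the tables, so no count of a member is split between copies.

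On build mm9, which the submitters' processing notes name, both hairpins lie on the minus strand. MiR-205-5p is at chr1:195333697-195333718 and miR-205-3p at chr1:195333661-195333682, while miR-31-5p is at chr4:88556518-88556539 and miR-31-3p at chr4:88556481-88556503. Neither hairpin belongs to a microRNA cluster, since 0 other microRNA loci lie within 10 kb of either. The nearest was miR-3962 for miR-205, at 1315 kb, and miR-491-3p for miR-31, at 788 kb. In the RefSeq annotation of GRCm38.p6, Mir205 overlaps the long noncoding gene Mir205hg, with the protein-coding genes Camk1g and Plxna2 on either side. Mir31 overlaps the annotated gene Gm49890 and lies between the interferon gene Ifne and Mtap. The next coding gene after Mtap is Cdkn2a, the classical PRC2 target that encodes cell cycle inhibitors. No exon or intron was assigned, because no annotation of the files' build was used here.

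The hairpins show how each pair of strands sits in its precursor. They are the RefSeq sequences of build GRCm38.p6, written 5′ to 3′ with both mature strands in capitals.
miR-205 hairpin: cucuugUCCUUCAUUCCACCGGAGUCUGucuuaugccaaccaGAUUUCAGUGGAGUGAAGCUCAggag
miR-31 hairpin: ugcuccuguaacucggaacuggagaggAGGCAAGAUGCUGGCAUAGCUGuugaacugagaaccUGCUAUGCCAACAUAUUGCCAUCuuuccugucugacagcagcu
The annotated precursors are 68 bases long for miR-205 and 106 for miR-31. In both, 14 bases separate the mature strands, and the fold predicted by RNAfold pairs 17 bases of the 5p strand with the 3p strand. The predicted free energy was -33.8 kcal/mol for miR-205 and -48.7 kcal/mol for miR-31, which are not comparable per base because the annotated lengths differ.

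The columns differed in depth. Total microRNA counts ranged from 8485806 in the Jarid2-/- column to 42293019 in the Eed-/- column, with 23793733 in the wild-type and 32074712 in the Ezh2-/- column. The ES cell microRNAs of the miR-290 and miR-302 clusters, 28 loci in all, made up between 39.5% (Jarid2-/-) and 46.5% (Ezh2-/-) of the counts, so the microRNAs that define mouse ES cells were abundant in every column. The levels are CPM, the level a count has among all microRNA counts of its column. Ranges in parentheses are exact 95% intervals that cover counting error only, and reads copied by PCR are not independent molecules. A count of 0, taken as up to 3 counts, allows at most 0.354 CPM in Jarid2-/-, 0.126 CPM in wild-type, 0.0935 CPM in Ezh2-/- and 0.0709 CPM in Eed-/-. In such bulk samples, fewer cells with a microRNA and less of it per cell cannot be told apart.

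MiR-205-5p and miR-31-5p were both well detected in wild-type ES cells, and each was high in one mutant and low in another. MiR-205-5p was low in Ezh2-/- and high in Jarid2-/- cells, and miR-31-5p was high in Eed-/- and low in Jarid2-/- cells. In the Jarid2-/- column the 5p and 3p strands of miR-31 parted, with the 5p strand below and the 3p strand above wild-type.

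**Figure D1:**
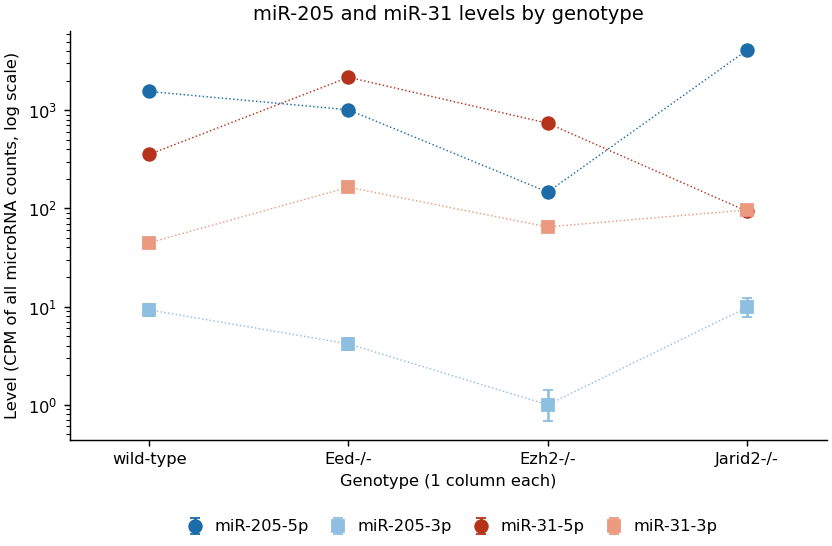
Level of each mature strand in the 4 genotypes, in CPM on a log scale, 1 column per genotype; bars are exact 95% Poisson intervals of the counts, and dotted lines join the values of 1 strand. MiR-205-5p runs from 147 CPM in Ezh2-/- to 4088 CPM in Jarid2-/-, and miR-31-5p from 93.7 CPM in Jarid2-/- to 2169 CPM in Eed-/-.

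MiR-205-5p, the strand held to be the active one, had 34689 counts in Jarid2-/-, 36984 in wild-type, 42739 in Eed-/- and 4705 in Ezh2-/-. Its level was 4088 CPM (4045 to 4131) in Jarid2-/-, 1554 CPM (1539 to 1570) in wild-type, 1011 CPM (1001 to 1020) in Eed-/- and 147 CPM (142.5 to 150.9) in Ezh2-/-. The Jarid2-/- column held nearly as many reads as wild-type from a much shallower library, and the Ezh2-/- column few reads from a deeper one. The order was Jarid2-/-, wild-type, Eed-/- and Ezh2-/-, and no neighbours in it had overlapping counting intervals. With the reads-per-million values of the deposited tables, which divide by more than the microRNA counts, wild-type and Eed-/- changed places at 150 and 160 reads-per-million. In rank by count among the 2035 loci, miR-205-5p stood at 34 in Jarid2-/-, 86 in wild-type, 118 in Eed-/- and 208 in Ezh2-/-.

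Compared with wild-type, Jarid2-/- cells had 2.63-fold more miR-205-5p (2.59 to 2.67) and Ezh2-/- cells 10.6-fold less (10.3 to 10.9). The log2 ratios behind these folds were 1.39 and -3.40 by total counts. Over the 4 other scalings they ran from 1.24 to 1.89 and from -3.36 to -2.88, wider than the counting intervals. In Eed-/- miR-205-5p was 1.54-fold lower (1.52 to 1.56), and this direction did not hold with the denominators of the deposited reads-per-million values, where the log2 ratio was 0.09. Between the mutants, Jarid2-/- stood 27.9-fold (27.03 to 28.74) above Ezh2-/- and 4.05-fold (3.99 to 4.10) above Eed-/-. Ezh2-/- stood 6.89-fold (6.68 to 7.10) below Eed-/-, although both lack a core subunit of the same complex. The log2 ratio behind it was -2.78 by total counts and -2.04 with median-ratio size factors.

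MiR-205-3p, the minor strand, was scarce in every column. It had 83 counts in Jarid2-/-, 220 in wild-type, 176 in Eed-/- and 32 in Ezh2-/-, or 9.78 CPM (7.79 to 12.1), 9.25 CPM (8.06 to 10.6), 4.16 CPM (3.57 to 4.82) and 0.998 CPM (0.682 to 1.41). Wild-type and Jarid2-/- overlapped in their intervals, and the order below them, Eed-/- and then Ezh2-/-, was that of the 5p strand. Below wild-type, the strand was at a 2.22-fold (1.81 to 2.72) lower level in Eed-/- and at a 9.27-fold (6.38 to 13.9) lower level in Ezh2-/-. In Jarid2-/- it was 1.06-fold higher with an interval from 0.812 to 1.37, so a difference was not detectable at this depth, where the 5p strand stood above wild-type.

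MiR-31-5p, the keratinocyte strand, had 91713 counts in Eed-/-, 23664 in Ezh2-/-, 8441 in wild-type and 795 in Jarid2-/-. Its level was 2169 CPM (2154 to 2183) in Eed-/-, 738 CPM (728 to 747) in Ezh2-/-, 355 CPM (347 to 362) in wild-type and 93.7 CPM (87.3 to 100.4) in Jarid2-/-. Eed-/- was highest, then Ezh2-/-, wild-type and Jarid2-/-, with no overlap of counting intervals between neighbours. The rank among the 2035 loci was 79 in Eed-/-, 93 in Ezh2-/-, 185 in wild-type and 281 in Jarid2-/-.

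Against wild-type, Eed-/- cells had 6.11-fold more miR-31-5p (5.98 to 6.25), Ezh2-/- cells 2.08-fold more (2.03 to 2.13) and Jarid2-/- cells 3.79-fold less (3.52 to 4.08). By total counts the log2 ratios were 2.61, 1.05 and -1.91. Under the 4 other scalings tried they were 2.39 to 3.32, 1.09 to 1.57 and -2.06 to -1.42. Those scalings shift ratios by too little to turn directions of this size. Eed-/- stood 2.94-fold (2.90 to 2.98) above Ezh2-/- and 23.1-fold (21.6 to 24.9) above Jarid2-/-. The first of these was under 2-fold with median-ratio size factors, where the log2 ratio of Ezh2-/- to Eed-/- was -0.82 in place of -1.55. Ezh2-/- stood 7.88-fold (7.34 to 8.46) above Jarid2-/-. The difference between Jarid2-/- and Eed-/- thus went in opposite directions for the 5p strands of the hairpins. Of 1073 loci tested in that comparison, 8 had a higher ratio than miR-205-5p and 10 a lower one than miR-31-5p.

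MiR-31-3p, the strand less often kept, had 6951 counts in Eed-/-, 818 in Jarid2-/-, 2077 in Ezh2-/- and 1063 in wild-type. Its level was 164 CPM (161 to 168), 96.4 CPM (89.9 to 103), 64.8 CPM (62.0 to 67.6) and 44.7 CPM (42.0 to 47.4) in the same order. All 3 mutants stood above wild-type without overlap of the counting intervals, Eed-/- by 3.68-fold (3.45 to 3.93), Jarid2-/- by 2.16-fold (1.97 to 2.37) and Ezh2-/- by 1.45-fold (1.35 to 1.56). Across the other scalings the log2 ratio in Jarid2-/- stayed positive, from 0.94 to 1.58, so that it fell on either side of a 2-fold difference. Jarid2-/- was 1.49-fold (1.37 to 1.61) above Ezh2-/-, an order that was lost with median-ratio size factors, where the log2 ratio was -0.06.

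Set against all loci, the 4 members lay on both sides of wild-type in every mutant, by total counts. Loci that reached 10 counts in either column of a comparison were tested, and a locus counts as called where its level, with 1 CPM added, differed at least 2-fold (a log2 ratio of 1 or more in size). The added 1 CPM understates the differences of low loci such as miR-205-3p. The 3 comparisons with wild-type share the wild-type column. Because the members were chosen with these ratios known, nothing is read from their share against the share of all loci.

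In Eed-/- against wild-type, 2 of the 4 members were called higher, which were the miR-31 strands, and 0 were called lower, while 17.5% of the 1096 tested loci were called higher and 15% lower. MiR-205-3p, at a log2 ratio of -0.99, fell just short of the threshold. In Ezh2-/- against wild-type, miR-31-5p was called higher and both strands of miR-205 lower, where 4.9% of 1000 tested loci were called higher and 24.5% lower. In Jarid2-/- against wild-type, miR-205-5p and miR-31-3p were called higher and miR-31-5p lower, where 16.3% of 950 tested loci were called higher and 22.8% lower. The median log2 ratio of the 4 members was 0.62 in Eed-/-, -0.92 in Ezh2-/- and 0.58 in Jarid2-/-, beside medians of 0.08, -0.44 and -0.17 over all tested loci. Such a median says little of members that lie on opposite sides of it. Between the mutants, all 4 members were called lower and 0 higher in Ezh2-/- against Eed-/-, where 35.7% of 1091 tested loci were called lower and 4.58% higher. With median-ratio size factors 1 of these calls was left, that of miR-205-5p, and the log2 ratios of miR-205-3p, miR-31-5p and miR-31-3p were -0.91, -0.82 and -0.60. In Jarid2-/- both strands of miR-205 were called higher and miR-31-5p lower, against Eed-/- (7.18% of all tested loci higher, 18.9% lower) and against Ezh2-/- (33% higher, 8.92% lower) alike. The call of miR-205-3p was just inside the threshold against Eed-/-, at a log2 ratio of 1.06, and 1 member in place of 2 was called higher there with factors from the trimmed mean of M-values (TMM), with reads-per-million denominators, with totals outside the miR-290 and Gtl2-Rian-Mirg clusters and with 10 CPM added. Against Ezh2-/- it rests on 83 and 32 counts, and was lost with a filter of 100 counts or with 10 CPM added.

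**Figure D2:**
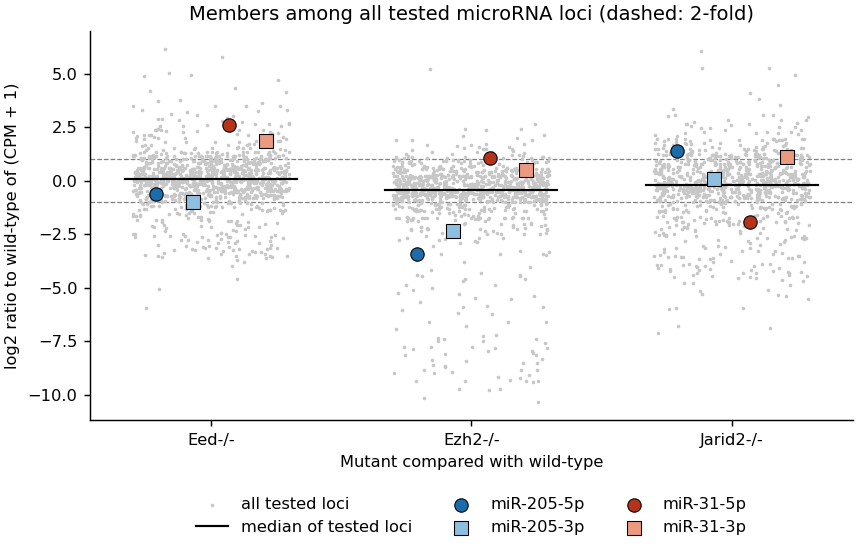
Log2 ratio of each mutant to wild-type, with 1 CPM added to both levels, for all tested loci (grey points, spread sideways at random), their median (black line) and the 4 strands (coloured symbols); dashed lines mark a 2-fold difference. MiR-205-5p lies at -0.62, -3.40 and 1.39 and miR-31-5p at 2.61, 1.05 and -1.91 in Eed-/-, Ezh2-/- and Jarid2-/-.

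The split of all loci into higher and lower depended on the scaling. By total counts 53.9% of the called loci in Eed-/- were higher, and this share was 77.0% with the reads-per-million denominators and 40.1% with median-ratio size factors. It was 16.7%, 34.2% and 37.0% in Ezh2-/- (32.3% with TMM), and 41.7%, 58.5% and 37.7% in Jarid2-/-. The microRNA counts were 9.66% of the reads-per-million denominator in wild-type and 15.8%, 13.2% and 13.6% in Eed-/-, Ezh2-/- and Jarid2-/-, which is what moves the ratios up by 0.71, 0.45 and 0.50 on the log2 scale under that scaling.

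The balance of the 5p and 3p strands within a hairpin does not depend on any scaling between columns. For miR-205 the 3p strand made up 0.676% (0.463 to 0.952%) of the reads of the hairpin in Ezh2-/-, 0.591% (0.516 to 0.675%) in wild-type, 0.410% (0.352 to 0.475%) in Eed-/- and 0.239% (0.190 to 0.296%) in Jarid2-/-. The 5p strand was thus the dominant one in all 4 columns. Wild-type and Ezh2-/- had overlapping intervals, although the level of the hairpin as a whole was 10.6-fold lower (10.3 to 10.9) in Ezh2-/-, so both strands were lower by a similar factor there.

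For miR-31 the balance was different in 1 column. In Jarid2-/- the 3p strand made up 50.7% (48.2 to 53.2%) of the reads of the hairpin, against 11.2% (10.6 to 11.8%) in wild-type, 8.07% (7.74 to 8.41%) in Ezh2-/- and 7.05% (6.89 to 7.21%) in Eed-/-. In counts, the 5p strand outnumbered the 3p strand by 7.94-fold in wild-type, 11.4-fold in Ezh2-/- and 13.2-fold in Eed-/-, while the ratio of 5p to 3p was 0.972 in Jarid2-/-. With both strands summed, miR-31 was at 2333 CPM in Eed-/-, 803 CPM in Ezh2-/-, 399 CPM in wild-type and 190 CPM in Jarid2-/-. The sum was 2.10-fold lower (1.99 to 2.22) in Jarid2-/- than in wild-type, less than for the 5p strand alone.

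**Figure D3:**
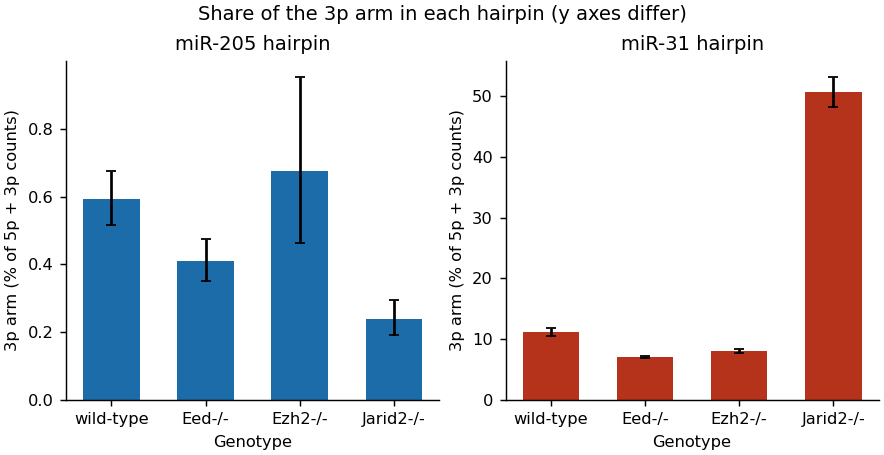
Share of the 3p strand among the 5p and 3p counts of the miR-205 hairpin (left) and the miR-31 hairpin (right) in the 4 genotypes, in percent; bars are 1 column each, error bars exact 95% binomial intervals, and the y axes differ. The miR-31 share is 50.7% in Jarid2-/- and between 7.05% and 11.2% in the other 3 columns, while the miR-205 share stays between 0.239% and 0.676%.

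The same measure over all hairpins gives the size of this difference a setting. Hairpins were counted by locus, so a hairpin with several copies, such as miR-124, enters the medians, percentiles and counts below more than once. Among 271 hairpins with at least 100 counts over both strands in Jarid2-/- and in wild-type, the 5p share of miR-31 moved by -39.5 percentage points, beside a median movement of 2.59 points in either direction and a 90th percentile of 15.1 points. A larger movement was found for 6 of them, which were the 3 loci of miR-124, whose reads cannot be told apart, and miR-22, miR-744 and miR-674, named after their values were seen. On the log2 scale the 5p ratio of miR-31 stood 3.00 below its 3p ratio, beside a median gap of 0.80 in either direction and a 90th percentile of 2.53, and 19 hairpins had a larger gap. In 5 of the 271 hairpins (1.85%) one strand was called higher and the other lower, and these were miR-31, miR-34a and the 3 loci of miR-124. For miR-205, whose 5p share is too near its upper end to move far in points, the 5p ratio stood 1.32 above the 3p ratio on the log2 scale, and 82 of the 271 hairpins had a larger gap. In Eed-/- and Ezh2-/- the 5p share of miR-31 moved by 4.14 and 3.12 points, which 130 of 328 and 98 of 268 hairpins exceeded, and its log2 gaps of 0.75 and 0.53 were exceeded by 156 and 161. The Jarid2-/- column is the shallowest and comes from the 1 small RNA sample of its genotype, so its library and its genotype cannot be told apart.

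**Figure D4:**
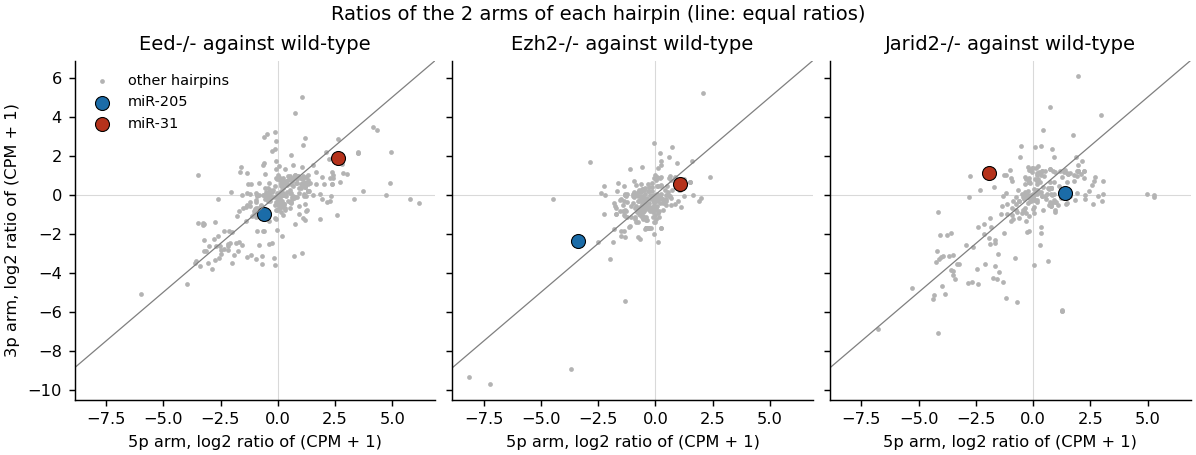
Log2 ratio to wild-type of the 5p strand (x axis) and of the 3p strand (y axis) of each hairpin with at least 100 counts in both columns, with 1 CPM added, in the 3 mutants; the line marks equal ratios, grey points are other hairpins. In Jarid2-/- miR-31 lies at -1.91 for 5p and 1.09 for 3p, away from the line, and in Eed-/- and Ezh2-/- it lies at 2.61 and 1.86 and at 1.05 and 0.53, near it.

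Other epithelial microRNAs differed among themselves in how they stood in the 3 mutants. The list of 14 loci holds both strands of miR-200a, miR-200b, miR-200c, miR-141 and miR-429, which hold Zeb1 and Zeb2 down in epithelial cells, of miR-203, which limits stem cell character in skin, and of miR-184, a microRNA of the cornea and lens. Its summed level was 4830 CPM in wild-type, 3949 CPM in Ezh2-/-, 3571 CPM in Jarid2-/- and 2120 CPM in Eed-/-. In Eed-/- 4 of the 14 tested loci were called higher and 2 lower, with a median log2 ratio of 0.09, beside 17.5% higher, 15% lower and a median of 0.08 over all tested loci. In Ezh2-/- 3 of 13 were higher and 0 lower, with a median of -0.07, beside 4.9%, 24.5% and -0.44 over all tested loci. In Jarid2-/- 2 of 13 were higher and 0 lower, with a median of 0.20, beside 16.3%, 22.8% and -0.17. Scaling turned the sign of the list's median in Ezh2-/- (0.30 with TMM, 0.33 by the reads-per-million denominators and 0.39 by median-ratio size factors) and in Eed-/- (-0.04 with median-ratio size factors). With the reads-per-million denominators 5 loci of the list were higher in Jarid2-/- and 6 in Eed-/-. Over all tested loci 259 of 950 and 369 of 1096 were higher under that scaling.

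Among the partners of miR-205 against Zeb1 and Zeb2, none was called lower in Ezh2-/-. MiR-200c-3p had 197 counts in wild-type and 1846 in Ezh2-/-, where it was 6.95-fold higher (6.0 to 8.09), and miR-200b-3p was 4.45-fold higher (4.25 to 4.66). The more abundant miR-200a-3p and miR-141-3p were lower by 1.43-fold (1.41 to 1.44) and by 1.30-fold (1.28 to 1.32) in these cells, and miR-429-3p was 1.5-fold lower (1.45 to 1.55), of which miR-141-3p turned higher with TMM, median-ratio and reads-per-million scaling (log2 ratios of 0.04 to 0.14) and miR-200a-3p was level with wild-type under median-ratio scaling (0.0037). In Eed-/- the 3p strands of the miR-200 family divided as well, with log2 ratios of 2.94 for miR-200c-3p and 1.71 for miR-200b-3p, beside -2.46 for miR-141-3p and -1.49 for miR-200a-3p. Of their 5p strands, miR-200a-5p, miR-200b-5p, miR-200c-5p, miR-141-5p and miR-429-5p had log2 ratios between -0.72 and 0.89 in the mutants, apart from miR-141-5p at 1.47 in Jarid2-/-.

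MiR-203-3p, the skin microRNA, was the list member called higher in Jarid2-/- beside miR-141-5p. It had 1305 counts in Jarid2-/-, 4843 in Eed-/-, 1534 in Ezh2-/- and 647 in wild-type, and stood 5.66-fold (5.14 to 6.22), 4.21-fold (3.88 to 4.58) and 1.76-fold (1.60 to 1.93) above wild-type in these mutants. It thus shared the higher level of miR-31-5p in Eed-/- and that of miR-205-5p in Jarid2-/-. MiR-203-5p was at 9, 78, 115 and 22 counts in the same order of columns, or 1.06, 1.84, 3.59 and 0.925 CPM. It was called higher in Ezh2-/-, at 3.88-fold (2.44 to 6.43). MiR-184-3p was at 17, 224, 37 and 49 counts, or 2.00, 5.30, 1.15 and 2.06 CPM. It was called higher in Eed-/-, at 2.57-fold (1.88 to 3.58), a call lost with median-ratio size factors (log2 ratio of 0.86). MiR-184-5p had 1 count in wild-type, 10 in Eed-/- and 0 in the other mutants.

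**Figure D5:**
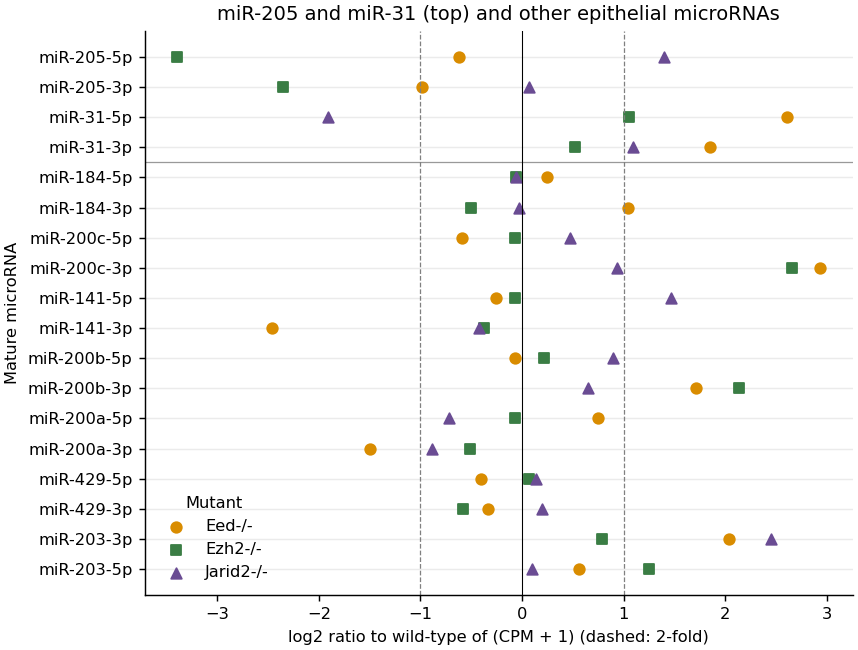
Log2 ratio to wild-type, with 1 CPM added, of the 4 members (top) and of the 14 loci of the epithelial list, with 1 symbol per mutant; dashed lines mark a 2-fold difference. MiR-205-5p at -3.40 in Ezh2-/- is below every list member in any mutant, and miR-200c-3p reaches 2.94 in Eed-/- and 2.66 in Ezh2-/-.

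Markers of other cell types were detected in every column, and some of them were as abundant as the members. Loci with the same mature sequence can share reads, so each sequence was counted once here, with the mean count of its loci. The numbers for all tested loci set beside the lists are by locus, so copies enter more than once there. Mesenchymal and fibroblast microRNAs, both strands of miR-199a, miR-199b, miR-214, miR-143 and the miR-145 forms, summed over 10 sequences to 1558 CPM in wild-type, 756 CPM in Jarid2-/-, 642 CPM in Ezh2-/- and 587 CPM in Eed-/-. Of their 7 tested sequences, 5 were called lower in Eed-/-, 5 in Ezh2-/- and 3 in Jarid2-/-, and 0 higher in any. The medians were -1.44, -2.03 and -0.38. Of all tested loci, 15%, 24.5% and 22.8% were called lower and 17.5%, 4.9% and 16.3% higher. With the reads-per-million denominators the counts lower were 3, 4 and 2 and the median in Jarid2-/- was 0.11. The loci of miR-199a-5p were unlike in Eed-/-, with 354 counts on chromosome 1 and 1025 on chromosome 9. Their log2 ratios there were -2.33 and -0.89, so the chromosome 9 locus alone is not called. Their mean count gives 1 of the 5 sequences called lower in Eed-/- and the median of -1.44. Of this list, miR-145b was at 0 counts in all 4 columns, miR-214-5p in Ezh2-/- and Jarid2-/- and miR-143-5p in Ezh2-/-.

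Blood microRNAs summed over 11 sequences to 9475 CPM in Ezh2-/-, 5958 CPM in wild-type, 4786 CPM in Eed-/- and 2909 CPM in Jarid2-/-. Most of this was miR-150-5p, a lymphocyte microRNA, at 5527 CPM in wild-type and 9074 CPM in Ezh2-/-. Of 8, 8 and 7 tested sequences, 2 were called higher and 3 lower in Eed-/-, 1 and 0 in Ezh2-/- and 1 and 2 in Jarid2-/-, with medians of 0.03, 0.40 and -0.86. In Ezh2-/- 3 were higher with TMM, median-ratio or reads-per-million scaling, where 95, 111 and 101 of 1000 tested loci were higher. The median of the list in Eed-/- was -0.12 with median-ratio size factors. By total counts, 17.5%, 4.9% and 16.3% of all tested loci were called higher in Eed-/-, Ezh2-/- and Jarid2-/-. The shares called lower were 15%, 24.5% and 22.8%. The strands of miR-142, known from blood cells, had log2 ratios of -5.96 (5p) and -5.07 (3p) in Eed-/- and -2.41 and -1.65 in Jarid2-/-. The other blood microRNAs were divided in direction. In Eed-/- miR-150-3p (2.23) and miR-155-5p (1.17) were called higher, and miR-451a (-1.11) was called lower. MiR-150-3p was also the sequence called higher in Ezh2-/- (2.44) and in Jarid2-/- (1.25). MiR-223-5p was at 0 counts in all 4 columns.

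Neural microRNAs summed over 7 sequences to 2020 CPM in Ezh2-/-, 1331 CPM in Eed-/-, 1306 CPM in wild-type and 364 CPM in Jarid2-/-. Of 6 tested sequences, 2 were called higher and 0 lower in Eed-/-, where miR-9-5p had a log2 ratio of up to 3.51 at its loci and miR-9-3p of up to 2.16. In Ezh2-/- and in Jarid2-/- 1 was higher and 1 lower. In Jarid2-/-, where miR-31-5p was lower, the lower one was miR-124-3p at -5.93 to -5.98, and the higher one was the other strand, miR-124-5p, at 1.27 to 1.28. The medians were 0.46, 0.29 and -0.20 in Eed-/-, Ezh2-/- and Jarid2-/-, the last of which was 0.23 with the reads-per-million denominators. Endodermal microRNAs summed over 11 sequences to between 376 CPM in Eed-/- and 1381 CPM in Ezh2-/-, most of it miR-192-5p. Of 7, 6 and 5 tested sequences, 1 was higher and 1 lower in Eed-/-, 2 and 0 in Ezh2-/- and 0 and 2 in Jarid2-/-, which became 3 and 0, 3 and 0, and 1 and 1 with the reads-per-million denominators. Beside the neural and endodermal counts, 17.5%, 4.9% and 16.3% of all tested loci, copies included, were called higher in Eed-/-, Ezh2-/- and Jarid2-/- by total counts. The shares called lower were 15%, 24.5% and 22.8%. The part of these other cell types in the levels of miR-205 and miR-31 was not tested.

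The loci whose pattern was most like that of a member were found over the 3 log2 ratios to wild-type, as the smallest value of their largest difference from the member, among 746 loci with at least 100 counts in 1 column. For miR-31-5p the nearest was miR-126a-3p, the endothelial microRNA, with log2 ratios of 2.33, 1.71 and -1.89 in Eed-/-, Ezh2-/- and Jarid2-/- and a largest difference of 0.65. It had 20876 counts in Eed-/-, 10247 in Ezh2-/-, 2314 in wild-type and 217 in Jarid2-/-, and its levels had the genotype order of miR-31-5p. The other strand, miR-126a-5p, was unlike it in Eed-/- and Ezh2-/-, with log2 ratios of -0.11 and 0.22. The loci next nearest to miR-31-5p were miR-483-5p, miR-196a-1-3p, miR-483-3p and miR-615-3p, at 1.15 to 1.33. They had only 7, 14, 25 and 2 counts in Jarid2-/-, where the added 1 CPM pulls their ratios towards no difference. The nearest to miR-31-3p was miR-1247-5p at 0.19, followed by miR-671-5p, miR-129-1-3p, miR-193a-5p and miR-187-5p at up to 0.63. Its own 5p strand lay 3.00 away, farther than any of these. Of these, miR-1247-5p, miR-193a-5p and miR-187-5p had 31, 23 and 16 counts in wild-type, where the added 1 CPM weighs as well.

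For miR-205-5p the nearest locus was miR-363-3p, of an X-linked cluster of the miR-17 family, and it was not close, at 1.24. It had 10205 counts in Jarid2-/-, 23017 in wild-type, 20524 in Eed-/- and 6923 in Ezh2-/-, with log2 ratios of -0.99, -2.16 and 0.31 in Eed-/-, Ezh2-/- and Jarid2-/-. The next were miR-199a-3p at both of its loci and miR-199b-3p, which are alike in sequence and share reads, at 1.38, and miR-669c-5p at 1.39. MiR-363-3p was also nearest to miR-205-3p, at 0.24, before miR-199a-5p (its chromosome 9 locus), miR-298-5p, miR-7226-3p and miR-19b-2-5p at up to 0.69. The patterns of miR-205-5p and miR-31-5p were 4.45 apart, the largest gap between any pair of the 4 members.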

How the data were processed

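Small RNA of 18 to 40 nt was cut from a gel, made into libraries with a SOLiD kit and sequenced on a SOLiD instrument, per the labels' protocols. Per the submitters' processing notes, cutadapt and Bowtie were used with mm9. Their settings and the treatment of reads with several matches: not given in the sources used here. Each deposited table holds, per the file headers, read counts per mature locus of miRBase release 20 and the same as reads-per-million (RPM) by the authors, whose denominator is larger than the microRNA counts. Columns were assigned by their names. That of Jarid2-/- carries the older name Jumonji, and that of wild-type names only the cj7 line, so it is the least direct. Chromatin and messenger RNA samples were not analysed here, and so the levels of Eed, Ezh2 and Jarid2 do not check the labels.

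From the counts, CPM of the column total, folds with exact conditional binomial intervals, Poisson intervals of levels and Clopper-Pearson shares were computed with scipy 1.17.1. The planned edgeR test was replaced by its fallback for 1 column per genotype, ratios with no test. The calculation of the ratios was run on simulated Poisson counts. These hold no variation between libraries, so they do not check differences between unreplicated columns. TMM factors came from edgeR 4.0.16, size factors from DESeq2 1.42.0, both from R 4.3.3, and folds of hairpins from RNAfold 2.7.2. Strands were paired by name within 200 bp. The named microRNAs were the 4 members, the 5 loci nearest in pattern to each, and the epithelial list. Other hairpins and single microRNAs of the other marker lists were named after their values were seen. MiR-292a is listed as miR-292 in the tables. The members and lists were chosen with earlier results of these data known.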

Additional observations from a re-analysis of the deposited data

How the results depend on the processing

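No paired analysis was possible because each genotype had 1 column without a replicate number, and leaving out a replicate or fitting DESeq2 could not be done for the same reason. Of 12 member ratios to wild-type, 8 were called and 0 of these changed sign under the 4 other scalings or a pseudocount of 0.1 or 10 CPM. That 0 was fixed in advance and is no check, because a call needs a log2 ratio of 1 in size. The scalings shifted ratios to wild-type by at most 0.71, and a pseudocount cannot turn a sign. Of the 4 ratios not called, 2 changed sign, which were miR-205-5p in Eed-/- (-0.84 to 0.09) and miR-205-3p in Jarid2-/- (-0.06 to 0.53). The 6 counts of called members moved by more than 1.5 times in 10 of 54 recounts. With median-ratio size factors 1 member was lower in Eed-/- (0 by total counts), 2 were higher in Ezh2-/- (1) and 1 was higher in Jarid2-/- (2). With the total taken outside the miR-290 and Gtl2-Rian-Mirg clusters, 1 was higher in Jarid2-/-. A pseudocount of 0.1 CPM gave 1 lower in Eed-/-, and 10 CPM gave 1 lower in Ezh2-/- (2) and 1 higher in Jarid2-/-. With strands summed per hairpin there are 2 units in place of 4, and 1 was higher in Eed-/-, 1 lower in Ezh2-/- and 1 higher in Jarid2-/-. For these 6 counts, filters of 1 or 100 counts gave the same values, because every member had more than 100 counts in wild-type. Summing all loci of a name is no check of the strand shares, because each member has 1 locus. The 6 counts between the mutants moved in 10 of 54 recounts too. In Ezh2-/- against Eed-/- 1 member was lower with median-ratio size factors and 2 with strands summed (4 by total counts). With 10 CPM added 3 were lower, which is within 1.5 times, and the log2 ratio of miR-205-3p was -0.36. In Jarid2-/- 1 was higher against Eed-/- (2) with TMM, the reads-per-million denominators, the total outside the clusters, 10 CPM added or strands summed, and 1 against Ezh2-/- (2) with a filter of 100 counts, 10 CPM added or strands summed. Of the 12 ratios between mutants, 10 were called and 0 of these changed sign, which the size of a call again fixed in advance. Depth limits miR-205-3p, with 32 to 220 counts, more than the other strands.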
